A study of Drosophila melanogaster with 6 samples.

Results

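The Jonah and trypsin genes of the fruit fly Drosophila melanogaster encode secreted digestive serine proteases. They were chosen with earlier results of these data known, by a rule that used gene symbols. The rule took every symbol that begins with Jon and a digit and the trypsins named by a Greek letter from alphaTry to lambdaTry. It also took the serine protease genes Ser6, Ser8 and Ser12. This gave 27 genes (13 Jonah genes, 11 trypsins and 3 Ser genes) of 13244 gene labels tested, read by 28 of 18769 probe sets. A single symbol was attached to 25 of these probe sets, and 3 were shared with other symbols.

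Affymetrix Drosophila arrays were used to compare whole flies at 3 days (young age group) with flies at 45 days (old age group), with 3 biological replicates at each age. Each sample was RNA from whole bodies of 100 females and 100 males per the labels, although the results text of the study speaks of females. Both groups were of the y(1), w67c23(2) background with no other allele or agent, and both were kept at 20 °C. The young samples are called Young1 to Young3 and the old samples Old4 to Old6, after the names of the deposited columns. The numbers only name samples. Nothing but pooled flies was sampled, so p-values measure the spread between 3 pools per age. The methods of the study describe RNA taken from each replicate's flies at 3 days and later at 45 days. Pools of both ages may therefore be linked by replicate, and the fit treated them as unpaired.

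Serine proteases of this family are made by the absorptive cells of the midgut, the enterocytes, and are secreted into the gut lumen, where they cut dietary protein. Trypsins cut after lysine or arginine. The number and letter in a Jonah gene name give the chromosome band where the gene lies. The Jonah proteases are chymotrypsin-like or elastase-like relatives, and many are known as abundant midgut transcripts. Each is made as an inactive precursor that is cut to become active. Many of these genes stand side by side in tandem groups, and copies can be nearly identical, so that a probe set named for one gene may also read a close relative.

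Values are log2 GCRMA intensities as the authors deposited them. GCRMA corrects for background and for probe composition and puts all arrays on 1 distribution, which left array medians between 2.45 and 2.47. Between 55.7% and 56.2% of the values on each array were smaller than log2 4, which is called the low end here, since differences among such values carry little information. A gene was called when it met the criteria of the study's methods, here with limma: a fold difference above 2, p under 0.05 and a false discovery rate (FDR) under 0.15 over all 18769 probe sets. With 3 samples per age the smallest two-sided p of an exact permutation test is 0.1, so none was run. A change is the old mean minus the young mean on the log2 scale, with its standard error (SE), and n = 3 per group throughout.

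Most of the digestive protease genes were lower in the old age group, and a few were higher. Of the 28 probe sets, 12 were called lower (42.9%), against 2.96% of all probe sets tested. The 4 called higher made up 14.3%, against 3.45% of all probe sets. Every old sample lay below every young sample in 20 member probe sets (71.4%), against 12.6% of all probe sets, and above every young sample in 4 (14.3%), against 16.1%. The median change over the 28 probe sets was -2.48, and over all probe sets it was 0.0008. Members are brighter than most features. Among the 8003 probe sets that reached log2 6 in some sample, as 25 of the members did, 6.02% were called lower and 6.83% higher. The members were chosen with earlier results of these data known, so all these shares are a description only.

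The calls were counted by family, and the difference between families was not tested. Among the Jonah genes, 6 of 13 probe sets with a single symbol were called lower, and the single call in the other direction came from a shared probe set. Among the trypsins, 4 of 9 such probe sets were called lower and 2 were called higher. Of the Ser genes, Ser6 was called higher, and Ser8 and Ser12 were not called. Counted by gene, 12 genes were called lower by at least 1 probe set and 10 by a probe set of their own. By the same count 4 genes were called higher, 3 of them by a probe set of their own, and 11 were called by none. The remaining gene called higher, Jon65Aiii, was called by a shared probe set whose FlyBase identifier is not its own. In whole-fly RNA, fewer cells of a type and less RNA per cell cannot be told apart.

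**Figure D1:**
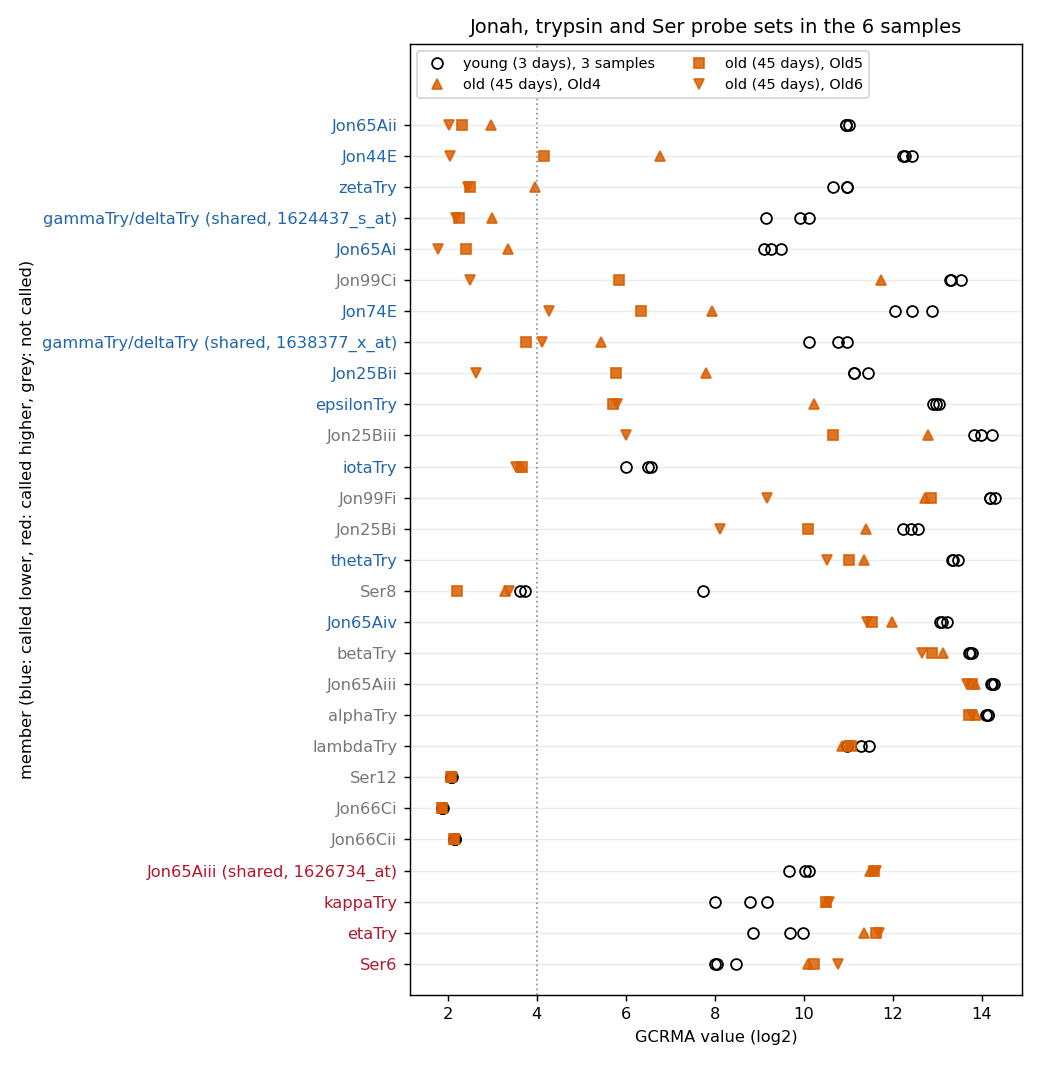
GCRMA values (log2, horizontal axis) of the 28 probe sets in each of the 6 samples, ordered by change. Open circles are the 3 young samples and filled orange symbols the 3 old samples; gene names are blue where called lower, red where called higher and grey where not called, and the dotted line marks log2 4. For most probe sets the young samples lie close together, but those of Ser8 run from 3.62 to 7.73. The old samples of several genes spread widely: the old samples of Jon44E lie at 2.04, 4.17 and 6.77, all below the young samples.

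Jon65Aii and Jon65Ai went from bright signals to the low end of the scale in every old sample. Jon65Aii (FBgn0035666), a chymotrypsin-like protease gene of the 65A group, read 10.94, 10.96 and 11.01 in the young samples and 2.96, 2.33 and 2.02 in Old4, Old5 and Old6. All old samples lay under log2 4, and the groups were 7.98 apart at their nearest samples. The change was -8.53 (SE 0.25, FDR 0.000563), a 371-fold difference and the largest among the members. Its neighbour Jon65Ai (FBgn0035667) read 9.50, 9.12 and 9.27 in the young and 3.34, 2.40 and 1.77 in the old samples. Here too the old samples were all at the low end, and the change was -6.79 (SE 0.43, FDR 0.00234). Because the old values of both genes are at the low end, the size of their fold differences depends on how GCRMA set that end.

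Jon44E (FBgn0001285) read 12.23, 12.27 and 12.43 in the young samples and 6.77, 4.17 and 2.04 in the old. The old samples fell at 3 separate heights, none near the young samples, and the change was -7.98 (SE 1.24, FDR 0.0191). Jon74E (FBgn0023197) read 12.89, 12.44 and 12.05 in the young samples and 7.93, 6.33 and 4.27 in the old. The order of the old samples was the same, with Old4 highest and Old6 lowest, and the change was -6.28 (SE 0.99, FDR 0.0197).

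Jon25Bii (FBgn0031654), the middle gene of the 25B group, read 11.13, 11.13 and 11.45 in the young samples and 7.80, 5.77 and 2.63 in the old. The groups did not overlap, but the old samples spanned 5.16 on the log2 scale. The change was -5.83 (SE 1.37, FDR 0.0619), and the call was lost without Young2, Young3 or Old5 (FDR 0.160, 0.155 and 0.166). Jon65Aiv (FBgn0250815) behaved otherwise: it read 13.23, 13.07 and 13.12 in the young samples and 11.98, 11.54 and 11.41 in the old. It stayed bright in every old sample, and the change of -1.50 (SE 0.16, FDR 0.00735), a 2.82-fold difference, was the smallest among the calls.

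The remaining Jonah genes did not pass. For Jon99Ci, the young samples lay between 13.30 and 13.55 and the old samples between 2.49 and 11.73. Old6 was at the low end and Old4 was close to the young samples, so the change of -6.69 had an SE of 2.46 and an FDR of 0.187. Jon25Biii had young values of 13.84 to 14.24 and old values of 6.00 to 12.79 (change -4.21, SE 1.83, FDR 0.265). Its neighbour Jon25Bi had young values of 12.23 to 12.58 and old values of 8.12 to 11.39 (change -2.54, SE 0.87, FDR 0.160). Without Old4 these 3 genes were called lower, with changes of -9.21, -5.70 and -3.31. With all samples kept, Jon99Ci and Jon25Bi were also called lower with array weights (FDR 0.135 and 0.111) and among probe sets with a group mean of at least log2 6 (FDR 0.0732 and 0.0609). They were also called with probe sets of a label averaged (FDR 0.142 and 0.121). Each has 1 probe set, so averaging left their values unchanged and only the set tested differed.

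For Jon99Fi, young values of 14.19 to 14.29 stood against old values of 9.17 to 12.87 (change -2.64, SE 1.10, FDR 0.244). Old6 alone was far below, and without it the change was -1.43 with an FDR of 0.00667. With all samples kept, Jon99Fi was called lower with array weights (FDR 0.119) and among probe sets with a group mean of at least log2 6 (FDR 0.102). All 4 of these genes nevertheless had every old sample below every young sample. Jon66Ci and Jon66Cii, a pair of neighbours, lay between 1.86 and 2.16 in all 6 samples, and no level could be read for them at either age.

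Jon65Aiii was read by 2 probe sets that went opposite ways. The probe set with its symbol alone (FBgn0035665) had young values of 14.22 to 14.27 and old values of 13.67 to 13.86. This difference of -0.48 (SE 0.05, FDR 0.00741) was larger than the spread within groups but only 1.39-fold, under the fold criterion. Both groups were also among the brightest values of the members. The other probe set carried the symbols CG6484, DsecCG6484 and Jon65Aiii. It read 10.13, 9.66 and 10.03 in the young samples and 11.49, 11.58 and 11.62 in the old. Every old sample was higher, and the change was 1.62 (SE 0.13, FDR 0.00377). The FlyBase identifier deposited with it (FBgn0034247) is not that of Jon65Aiii, so its call cannot be assigned to that gene.

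**Figure D2:**
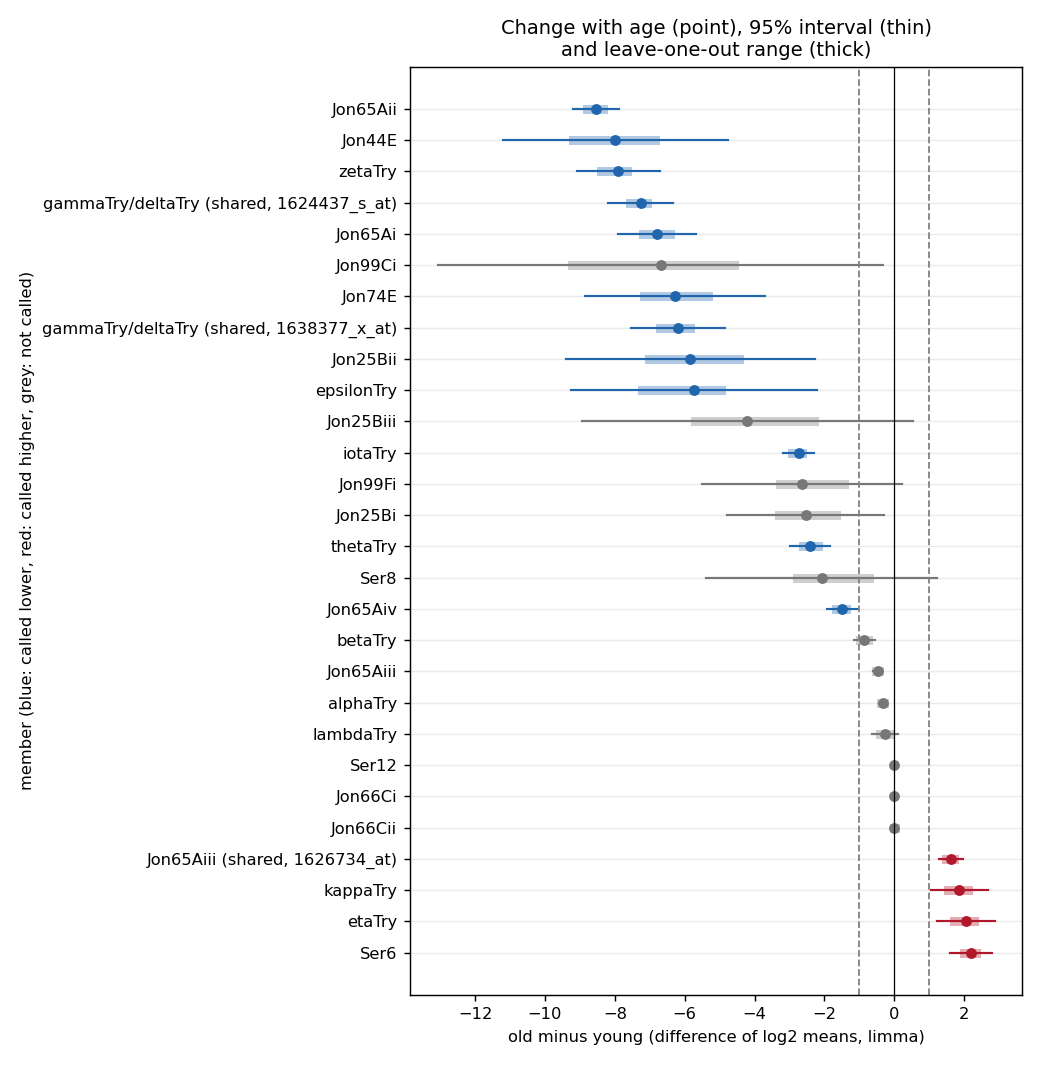
Change of each probe set (old minus young, difference of log2 means, horizontal axis) with its 95% interval as a thin line and the range over leaving out each sample in turn as a thick line. Blue marks probe sets called lower, red called higher and grey not called, and dashed lines mark a 2-fold difference. The interval of Jon65Aii runs from -9.19 to -7.88, while that of Jon99Ci runs from -13.1 to -0.32.

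Among the trypsins, zetaTry (FBgn0011556) had the largest fall of any read by a probe set of its own. It read 10.65, 10.98 and 10.97 in the young samples and 3.95, 2.50 and 2.45 in the old, where all 3 lay under log2 4. The change was -7.90 (SE 0.46, FDR 0.00196), a 239-fold difference. The trypsin epsilonTry (FBgn0010425) read 12.91, 13.05 and 12.97 in the young samples and 10.23, 5.71 and 5.81 in the old. Old4 stood well above the other old samples but below the young. The change was -5.73 (SE 1.36, FDR 0.0633), and the call was lost without Young2, Young3, Old5 or Old6, with FDR from 0.152 to 0.191.

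The trypsin thetaTry (FBgn0011555) read 13.35, 13.33 and 13.47 in the young samples and 11.36, 11.02 and 10.53 in the old. It remained bright at both ages with tight replicates, and the change was -2.42 (SE 0.22, FDR 0.00508). The dimmer iotaTry (FBgn0015001) read 6.50, 6.56 and 6.00 in the young samples and 3.64, 3.66 and 3.53 in the old. The old samples were all under log2 4 and the change was -2.74 (SE 0.17, FDR 0.00220). With values under log2 6 raised to 6, the change was -0.35 and the call was lost (FDR 0.364).

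The near-identical trypsins gammaTry and deltaTry shared both of their probe sets, and their levels could not be separated. The brighter of these read 10.13, 10.98 and 10.78 in the young samples and 5.44, 3.75 and 4.11 in the old. The other read 9.15, 10.12 and 9.93 in the young samples and 2.98, 2.24 and 2.18 in the old. Both were called lower, with changes of -6.19 (SE 0.52, FDR 0.00410) and -7.26 (SE 0.36, FDR 0.00127), and neither overlapped between ages.

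These 2 probe sets also carried the symbols CG30025, CG30031 and AGO1. Their FlyBase identifiers are those of the 4 trypsin-like genes and not of AGO1, the Argonaute of the microRNA pathway. The probe sets of AGO1 itself changed by -0.15 (FDR 0.216) and 0.11 (FDR 0.923). A further probe set labelled CG30031 and CG4269 is no member and went the other way. It read 2.89, 3.22 and 4.38 in the young samples and 11.63, 12.49 and 12.18 in the old, a 388-fold rise (FDR 0.00161). Its identifier (FBgn0034741) is not that of CG30031.

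The trypsins alphaTry and betaTry were among the brightest members and changed by less than 2-fold. For alphaTry the young samples lay between 14.10 and 14.14 and the old between 13.72 and 13.88. For betaTry they lay between 13.73 and 13.78 and between 12.67 and 13.13. Both had every old sample below every young sample, with 1.26-fold and 1.81-fold differences (FDR 0.0126 and 0.0145), and so missed only the fold criterion. For lambdaTry, the young samples (10.97 to 11.48) and the old samples (10.86 to 11.06) overlapped, and the change was -0.26 (95% interval -0.65 to 0.12, FDR 0.422).

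A pair of trypsins rose. The trypsin etaTry (FBgn0011554) read 8.87, 9.69 and 9.99 in the young samples and 11.36, 11.63 and 11.69 in the old, a change of 2.05 (SE 0.32, FDR 0.0190). In kappaTry (FBgn0043471) the young samples read 8.01, 8.80 and 9.18 and the old samples 10.51, 10.49 and 10.58, a change of 1.86 (SE 0.31, FDR 0.0245). In both genes the young samples spread over more than 1 on the log2 scale and the old samples were tight, whereas no gene called lower had such a spread among its young samples.

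Ser6 (FBgn0011834), a serine protease gene, had the largest rise of the members. It read 8.01, 8.06 and 8.48 in the young samples and 10.10, 10.23 and 10.77 in the old, a change of 2.18 (SE 0.23, FDR 0.00700). All old samples were at least 1.62 above the highest young sample. Ser8 lay between 3.62 and 7.73 in the young samples and between 2.21 and 3.38 in the old. Its young mean rested on Young3, and the change of -2.07 (SE 1.27, FDR 0.483) was -0.72 without that sample. Ser12 lay between 2.06 and 2.10 in all samples.

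Genes that lie side by side did not all move the same way. In the RefSeq gene order (Release 6 assembly), 20 of the 27 genes stood in groups of neighbours. All 11 trypsins formed the longest of them, in the order lambda, kappa, zeta, eta, theta, alpha, epsilon, beta, gamma, delta and iota. The order runs from kappaTry, which rose, to zetaTry, which fell, to etaTry, which rose, and to thetaTry, which fell. Of 8 pairs of trypsins with no other coding gene between them, 3 were called in opposite directions. The 4 genes of the Jon65A group lay next to each other, and their changes ran from -0.48 for Jon65Aiii, by its own probe set, to -8.53 for Jon65Aii. In the Jon25B group of 3, every old sample was below every young sample in each gene, with changes of -4.21, -5.83 and -2.54 in gene order.

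**Figure D3:**
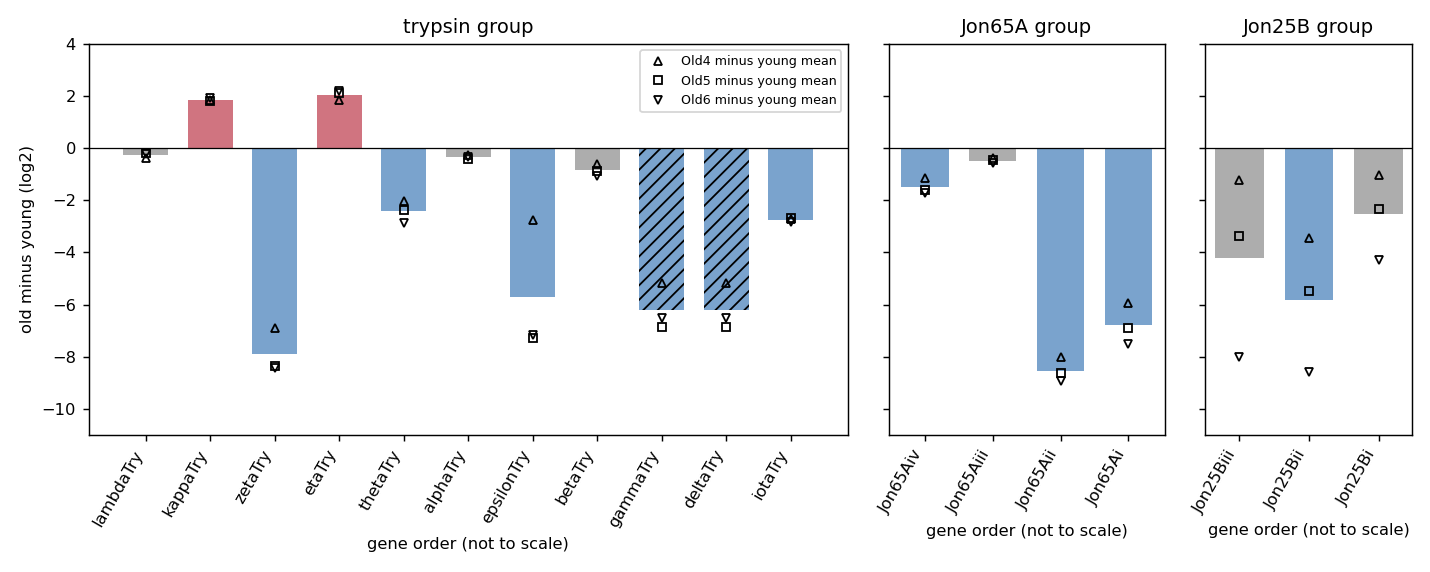
Change with age (bars, old mean minus young mean, log2) and each old sample minus the young mean (open symbols) for 3 groups of neighbouring genes, in gene order and not to distance. Blue bars were called lower, red higher and grey not called; hatched bars are the probe set that gammaTry and deltaTry share, drawn once for each gene. In the trypsin group kappaTry (1.86) and etaTry (2.05) rose on either side of zetaTry (-7.90).

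In most probe sets called lower, the old samples differed from each other more than the young ones did. The young samples spread more widely for iotaTry (0.57 against 0.13) and for the dimmer gammaTry and deltaTry probe set (0.97 against 0.80). The young spread was also the wider for several other members, such as Ser8 (4.11 against 1.17). Among the 12 probe sets called lower, the range over the young samples had a median of 0.33 and never passed 1, while the range over the old samples had a median of 1.54 and passed 1 in 7. In 5 of the 12, all old samples lay under log2 4. Old4 was the highest old sample in 11 of the 12 and Old6 the lowest in 10, and both held in 9 (75%). Among the 544 other probe sets called lower, both held in 152 (27.9%). These shares are a description, since the members come from the same 3 pools.

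On the linear scale, the signal of all 28 member probe sets was summed, with the 3 shared ones included. The sum lay between 152675 and 161109 in the young samples and was 77260, 61743 and 50724 in Old4, Old5 and Old6. The 10 eggshell genes used as markers of egg-forming follicle cells had the same order of old samples in 10 of 10. Their summed signal was 141714 to 146136 in the young samples and 71086, 23077 and 1218 in Old4, Old5 and Old6. Of the 10, Vm34Ca, a vitelline membrane protein gene, was called lower (6.32-fold, FDR 0.106). The methods' t-test did not call it (FDR 0.189). The call was also lost without any one of the young samples, Old5 or Old6 (FDR 0.196 to 0.285), and without Old4 the number called was 5. The part of the eggshell pattern in the members' spread was not tested. Of 6 male accessory gland markers, 5 were measured, and all lay under log2 4 in every sample although the labels give 100 males per sample.

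**Figure D4:**
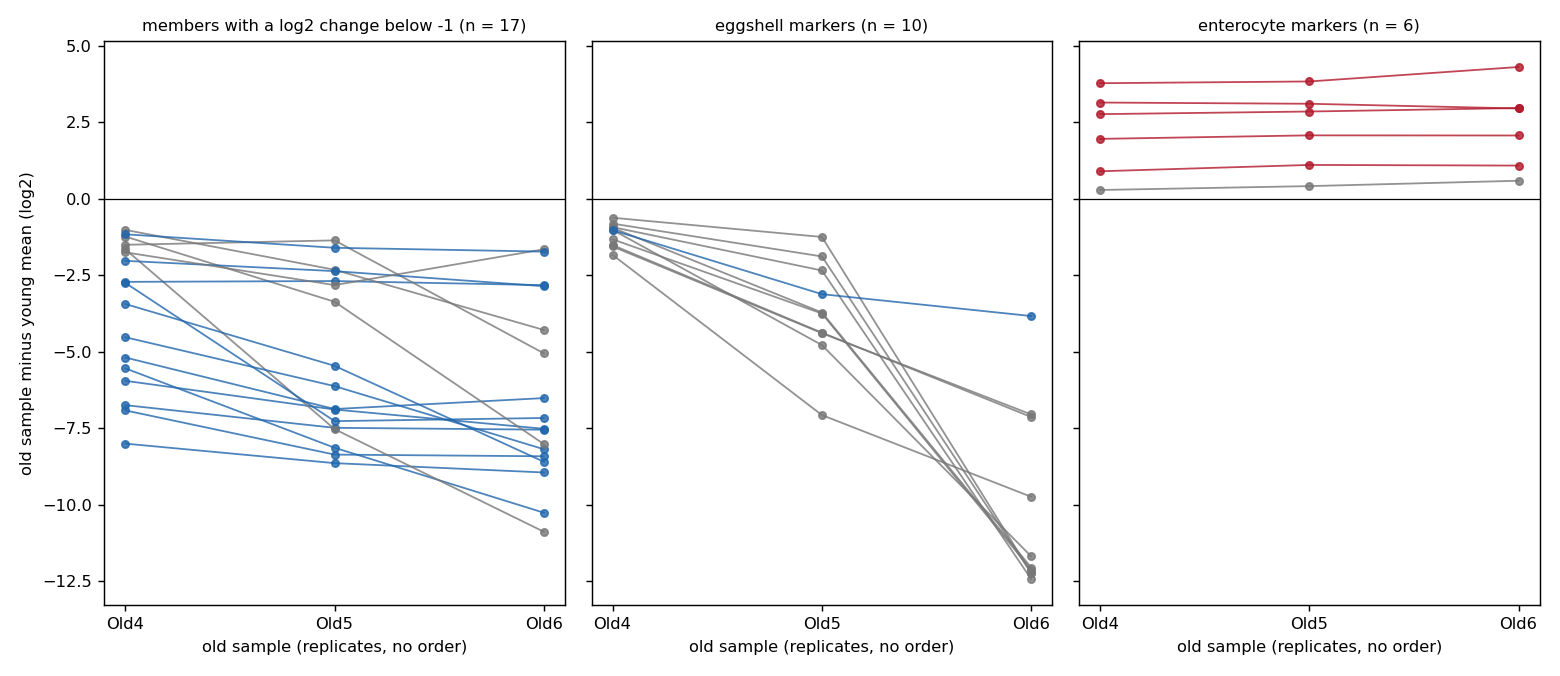
Each old sample minus the mean of the young samples (log2, vertical axis) for the 17 members with a change below -1, for 10 eggshell markers and for 6 enterocyte markers. A line joins the values of 1 probe set and shows no order in time, since the old samples are replicates; blue was called lower, red higher and grey not called. Old6 is lowest for all 10 eggshell markers and for most members, while the enterocyte markers lie above 0 in all 3 old samples.

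Genes listed as enterocyte markers went the other way from the members called lower. Whole-fly RNA does not show which cells their signal came from. Over all probe sets tested, 3.45% were called higher and 2.96% lower. Of 6 enterocyte markers, 5 were called higher: nub, a POU transcription factor (15.7-fold, FDR 0.00588), the smooth septate junction genes mesh (8.40-fold), Tsp2A (7.28-fold) and Ssk (4.10-fold), and the myosin gene Myo61F (2.05-fold), whose call was lost without Old5. Myo31DF was 1.35-fold higher and did not pass the fold criterion. The summed signal of the 6 lay between 9988 and 13156 in the young samples and between 39263 and 43028 in the old. Their part in the members' changes was not tested.

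Some other proteases fell as well. Of 30 further genes of the same serine protease family listed by symbol, 19 were measured by probe sets of their own, and 7 of them were called lower. Another 7 of the 19 lay under log2 4 in all samples. At an unadjusted p under 0.05 (limma), 8 of the 19 were lower and 0 were higher. The methods' t-test called 5 lower and 0 higher, and an FDR under 0.05 also left 5 called lower. CG8299 was not called in either. The 7 calls fell to 3 when values under log2 4 were raised to 4 and to 2 when values under log2 6 were raised to 6. CG11911 read 10.57, 10.71 and 10.20 in the young samples and 3.42, 2.31 and 2.33 in the old (224-fold, FDR 0.00124). CG8299 and CG31265 were 25.9-fold and 16.3-fold lower (FDR 0.0937 and 0.00674), and CG8299 lost its call without Young2, Young3, Old5 or Old6 (FDR 0.217 to 0.266). All 3 had every old sample below every young sample. The protease gene yip7 was 1.86-fold lower and missed the fold criterion.

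Of 11 aspartic and cysteine protease genes, 3 were called lower: CG31928 (117-fold, FDR 0.119), CG31926 (108-fold, FDR 0.0995) and CG6508 (91.4-fold, FDR 0.0103). CG6508 kept its call when each sample was left out in turn, but the calls of CG31928 and CG31926 were each lost without Young1, Young2, Young3, Old5 or Old6 (FDR 0.179 to 0.294). Without Old4, 4 of the 11 were called lower. The methods' t-test and an FDR under 0.05 each left 1 call, and CG31928 and CG31926 were not called in either. Of the 11 genes, 4 lay under log2 4 in all samples. CG31926 read 11.98, 12.18 and 12.16 in the young samples and 9.23, 4.75 and 2.06 in the old, the same order of old samples as in most of the members that fell. The lysosomal protease genes cathD (1.07-fold higher, FDR 0.398) and Cp1 (1.14-fold lower, FDR 0.0321) were not called.

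Serpins, which inhibit serine proteases by trapping them, were measured by 27 probe sets, of which 6 were called higher and 1 lower. Of the 27, 15 lay under log2 4 in all samples. Over all probe sets tested, 3.45% were called higher and 2.96% lower. Spn88Eb read 7.57, 8.15 and 10.75 in the young samples and 13.34, 13.25 and 13.50 in the old (23.2-fold, FDR 0.0369). Spn42Dc and Spn55B were 7.75-fold and 6.07-fold higher. Spn43Aa read 3.87, 4.34 and 5.28 in the young samples and between 1.99 and 2.04 in the old, at the low end, and its call was lost when values under log2 4 were raised to 4 (FDR 0.268). Of 11 maltase and amylase genes, which break down starch and sugars, Mal-A2 was called (2.50-fold higher, FDR 0.0567). That call was lost without any one of the old samples, while 5 of the 11 were called higher without Young3. Of 6 transcription factor genes of the midgut and fat body, 2 were called higher, 1 was called lower and 3 were not called. The GATA factor genes GATAe and srp went opposite ways, 2.25-fold higher (FDR 0.0409) and 4.09-fold lower (FDR 0.00646). The remaining gene called higher was nub, listed above as an enterocyte marker. Those not called were cad, Ptx1 and lab, and for cad and Ptx1 the age groups overlapped. For lab, every old sample lay below every young sample (1.62-fold lower, FDR 0.00366), but all its samples lay under log2 4. The call of GATAe was lost without Young2. The gene daw, which encodes a ligand of the Activin branch of TGF-beta signalling, was 3.81-fold lower (FDR 0.0566), a call lost without Young2, Old4 or Old6 (FDR 0.156 to 0.159).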

How the data were processed

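Total RNA of whole flies was amplified, labelled and hybridised to Affymetrix arrays. According to the submitters' notes, the authors normalized the arrays with GCRMA in Partek 6.5 and deposited log2 values, 1 column per sample. The old columns are numbered otherwise than the old labels and were used by group only. After 183 control probe sets were left out, 18769 of 18952 were fitted with limma 3.58.1 in R 4.3.3 (lmFit and eBayes, old minus young, no covariate), with Benjamini-Hochberg FDR over all of them. This took the place of the SAM test of the methods, and the methods' t-test was run as an alternative. The fit was tested on simulated data. The members and lists were chosen with earlier results of these data known. Values of all samples were printed for called members and ranges for the others; outside the members, up to 3 called genes in each direction per list were named, with those at issue in a check. A list gene was read by its brightest probe set. RefSeq gene tables served for names and gene order only, and protein and promoter sequences were not used here. No scan date or batch was given. Plots were drawn with matplotlib 3.10.9 in Python 3.11.15. Alternatives comprised array weights, another variance prior, recentring, renewed quantile normalization, filters and floors on low values, a stricter FDR, averaged probe sets and leaving out each sample.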

Additional observations from a re-analysis of the deposited data

How the results depend on the processing

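The 4 member probe sets called higher were called under every alternative run. They include the shared probe set whose identifier is not that of Jon65Aiii. The count called lower was 12 with the methods' t-test, 10 at an FDR under 0.05, 15 with array weights, 15 among probe sets with a group mean of at least log2 6, 11 with values under log2 6 raised to 6, and between 10 and 15 when each sample was left out in turn. The 3 gained with array weights were Jon99Ci, Jon99Fi and Jon25Bi, and the 2 lost at the stricter FDR were epsilonTry and Jon25Bii. With probe sets of a label averaged, Jon99Ci and Jon25Bi were also called lower, though each has 1 probe set and its values were unchanged. No called member changed sign under these alternatives. Changes that reversed belonged to genes at the low end of the scale: when each sample was left out in turn, Jon66Ci ranged from -0.0091 to 0.0039, Ser12 from -0.014 to 0.0046 and Jon66Cii from -0.0034 to 0.0057, and Jon66Cii was -0.0068 with array weights. Young and old pools may be linked by replicate, as the methods of the study describe. No paired analysis was possible because the old columns carry numbers that no label gives to an old sample. With 3 arrays per age, precision is limited by their number.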

Other observations

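Of 6 markers of stem cells and hormone-producing enteroendocrine cells, 3 were called higher in the old age group and 1 lower (limma), while pros and Tk were not called. The stem cell factor gene esg read 4.03, 3.45 and 3.17 in the young samples and 6.47, 6.92 and 8.74 in the old (14.2-fold, FDR 0.0269). The peptide hormone genes NPF and AstC were 2.22-fold and 2.14-fold higher (FDR 0.0583 and 0.0223), and these calls were lost without Old5 or Old6 for NPF and without Young1 for AstC. With values under log2 6 raised to 6, AstC was the single marker of the 6 called higher. Dl, which encodes the Notch ligand Delta, was 2.35-fold lower (FDR 0.0278).

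The gene sug, which encodes a transcription factor of the sugar response, read 10.20, 10.40 and 9.73 in the young samples and 9.66, 9.67 and 4.72 in Old4, Old5 and Old6. Old6 alone was far below the others, and the gene was not called (FDR 0.603). The yolk protein genes Yp1, Yp2 and Yp3 were 1.16-fold, 1.61-fold and 1.52-fold lower, under the fold criterion, with every old sample below every young sample.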
